A study of Arabidopsis thaliana with 36 samples.

Results

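The comparison described here set leaves of Arabidopsis thaliana ecotype Wassilewskija (WS) taken 120 min after a move to high light against WS leaves taken at 0 min, just before the move, with 3 libraries in each group. Genes entered it if at least 1 of the 36 libraries of the series read above 7 RPKM (reads per kilobase of exon, scaled by the mapped reads of the library), which left 13817 of the 37336 genes in the table. The plants were wild-type and hydroponic, raised with days of 12 h and 23 °C at 120 μmol m-2 s-1 of photons (PFD), and put under 500 μmol m-2 s-1 in a gas exchange chamber. A single fully expanded leaf was taken from each plant at each time, so a library is 1 leaf. WS leaves 60 min and 240 min after the move, and Columbia-0 (Col-0) leaves at 120 min and 0 min, each with 3 libraries, served for side comparisons.

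No library followed leaves kept at 120 μmol m-2 s-1 for the same 120 min. The light, the time of day, the removal of earlier leaves and the stay in the chamber therefore cannot be told apart from these libraries. For GPT2 the study does report a qPCR control in both ecotypes. Plants kept in the chamber at growth light and CO2 showed no rise of that transcript. The labels also head the times as hours where the titles and the methods give minutes, and minutes are used here.

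When a leaf receives more light than it grew under, it assimilates more carbon, and sugars and phosphorylated sugars accumulate in the chloroplast and the cytosol. Leaves are known to answer such a change by moving sugars between plastid, cytosol and vacuole, by making starch and by lowering the transcripts of light-harvesting proteins. A detached or wounded leaf, in contrast, is known to make jasmonate, a lipid-derived hormone that turns on defence genes, and many leaf transcripts also follow the circadian clock through the morning.

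Before the results, 2 libraries need a description. WS 120 min replicate 3 stood apart from the other 120 min leaves, with a correlation across genes of 0.863 with replicate 1 and 0.859 with replicate 2, against 0.958 between replicates 1 and 2. In mean squared distance over genes it lay nearer to the WS 240 min leaves, with a root mean square difference of 0.671, than to its own group, with 0.925. WS 0 min replicate 1 was the shallowest library, with about 7350000 reads in genes, where the other 5 held between 25110000 and 36780000. In that library a single read in a 1 kb gene is worth 0.132 RPKM, so levels near 0 are less certain there. Results that rest on replicate 3 are given with and without it.

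At a Benjamini-Hochberg adjusted p under 0.05 in limma, 5600 genes differed between WS 120 min and WS 0 min leaves, which is 40.5% of those tested. Transcript levels were higher at 120 min for 3210 genes (23.2%) and lower for 2390 genes (17.3%). Of these, 2054 were higher by over 2-fold (14.9%) and 1484 were lower by over 2-fold (10.7%). The shares of 23.2% higher and 17.3% lower are the background for the list counts below. The 3 WS 120 min libraries lay wholly above the 3 WS 0 min libraries for 3587 genes (26.0%) and wholly below them for 2637 genes (19.1%). The median difference over all genes tested was 0.10 on the log2 scale, and 0.14 without replicate 3. When the libraries were rescaled by the median of ratios the calls were split into 2806 higher and 2825 lower, and by TPM (RPKM divided by their sum in each library) into 3706 higher and 1927 lower.

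Replicate 3 lay on the 0 min side of the 120 min group for most called genes. It was the lowest of the 3 in 2233 of the 3210 higher genes (69.6%) and the highest of the 3 in 1726 of the 2390 lower genes (72.2%). Without it, 5218 of the 5600 genes (93.2%) were still called in the same direction, 382 were lost and 1384 were added. The counts then came to 3815 higher and 2787 lower.

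GPT2, which encodes the glucose-6-phosphate/phosphate translocator of the plastid envelope, was the gene the study set out to follow. It read 290, 794 and 421 RPKM in the WS 120 min leaves, against 1.08, 1.57 and 1.14 RPKM in the WS 0 min leaves. The groups were far from overlapping, and the ratio of the means was 397-fold (log2 difference of RPKM + 1 of 7.67, SE 0.60, limma adjusted p = 5.31e-10). Log2 differences below are all on the scale of RPKM + 1, which understates changes of genes near 0. Replicate 3, low for many induced genes, was the middle one of the 3 for GPT2.

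The triose phosphate translocator TPT, which exports triose phosphates from the chloroplast by day, moved the other way. It read 303, 157 and 330 RPKM at 120 min, against 916, 860 and 851 RPKM at 0 min, a log2 difference of -1.80 (SE 0.31, limma adjusted p = 4.44e-05). G6PDH1 is a chloroplast glucose-6-phosphate dehydrogenase gene, for the first step of the oxidative pentose phosphate pathway. It read 4.66, 3.70 and 19.4 RPKM at 120 min, against 145, 102 and 102 RPKM at 0 min. For both genes all 3 libraries at 120 min lay below all 3 at 0 min, and G6PDH1 stood at 12.6-fold lower (log2 difference -3.83, SE 0.47, limma adjusted p = 5.60e-07).

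Among the genes of sucrose synthesis that the study names, SPS4, a sucrose-phosphate synthase, read 7.18, 6.29 and 8.80 RPKM at 120 min, against 35.4, 52.9 and 64.8 RPKM at 0 min. That is a log2 difference of -2.60 (SE 0.41, limma adjusted p = 1.83e-05). SPP2, the phosphatase of the next step, was lower by 0.57 on the log2 scale (limma adjusted p = 0.0331), and it missed the threshold in 8 of 21 alternative settings. GAPN, the cytosolic non-phosphorylating glyceraldehyde-3-phosphate dehydrogenase, was lower by 1.93-fold (log2 difference -0.92, limma adjusted p = 0.00082). RRTF1, a redox-responsive transcription factor, read 0.31, 1.00 and 0.02 RPKM at 120 min, against 0, 0.02 and 0 RPKM at 0 min. The difference did not pass (limma adjusted p = 0.744), and levels this near 0 are compressed on the RPKM + 1 scale. The study describes an RRTF1 rise earlier than 120 min, ahead of GPT2, by RNA-Seq and by qPCR in both ecotypes.

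**Figure D1:**
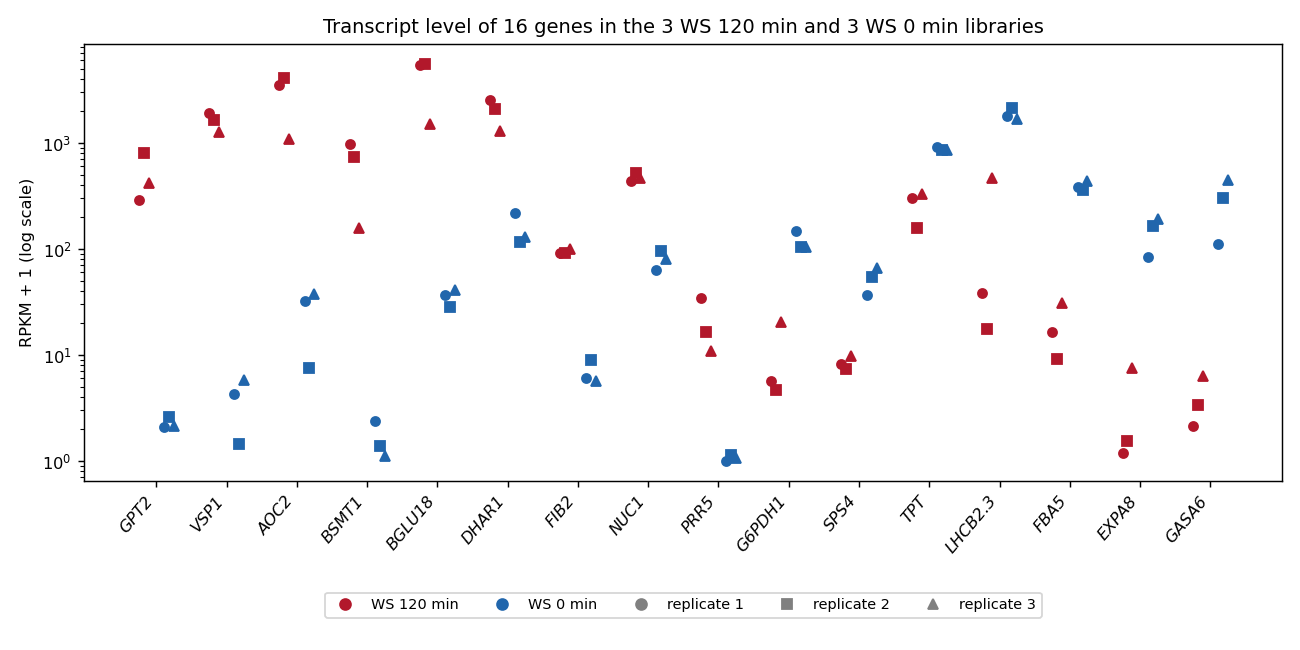
Transcript levels (RPKM + 1, log axis) of 16 genes in the 3 WS 120 min libraries and, to their right, the 3 WS 0 min libraries, with a marker shape for each replicate. GPT2 reads 290 to 794 RPKM at 120 min and 1.08 to 1.57 RPKM at 0 min, while G6PDH1 reads 3.70 to 19.4 RPKM at 120 min and 102 to 145 RPKM at 0 min.

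The 12 largest increases, GPT2 among them, are given next. Only called genes whose 3 and 3 libraries did not overlap, with a higher group above 7 RPKM on average, could enter. VSP1, a vegetative storage protein induced by jasmonate, read 1932, 1656 and 1275 RPKM at 120 min, against 3.26, 0.45 and 4.76 RPKM at 0 min (log2 difference 8.93, SE 1.01, limma adjusted p = 1.53e-07). BSMT1, which methylates benzoate and salicylate to volatile esters, read 976, 736 and 156 RPKM at 120 min, against 1.35, 0.39 and 0.10 RPKM at 0 min. BGLU18, the main β-glucosidase of endoplasmic reticulum (ER) bodies in wounded leaves, read 5449, 5572 and 1494 RPKM at 120 min, against 35.5, 27.0 and 39.5 RPKM at 0 min.

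In each of these genes the 3 libraries at 120 min were at least an order of magnitude above the highest at 0 min, and replicate 3 was the lowest of the 3. The rest of the 12 were AOC2 (allene oxide cyclase), JR1 (a jasmonate-responsive lectin), IGMT5 (a methyltransferase of indole glucosinolates), TSA1 (an ER body component), ATCSLA15 (annotated as a nucleotide-diphospho-sugar transferase), the TRAF-like AT3G28220, the phosphotriesterase-like AT3G51450 and the uncharacterized AT5G03204. Their log2 differences ran from 6.24 for TSA1 to 8.51 for AT3G28220. AT5G03204 missed the threshold in 1 of the 21 alternative settings, and the other 11 in none.

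The 12 largest decreases followed the same rule. GASA6, a gibberellin-regulated peptide, read 1.13, 2.36 and 5.29 RPKM at 120 min, against 110, 301 and 442 RPKM at 0 min (log2 difference -6.11, SE 0.91, limma adjusted p = 7.90e-06). EXPA8, an expansin that loosens cell walls, read 0.18, 0.53 and 6.51 RPKM at 120 min, against 82.1, 164 and 190 RPKM at 0 min. FBA5, a cytosolic fructose-bisphosphate aldolase, read 15.4, 8.06 and 29.9 RPKM at 120 min, against 386, 357 and 432 RPKM at 0 min.

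Separate groups were a condition for entering this list. Replicate 3 was the highest of the 120 min libraries in each of these 3 genes. The list also held the antenna genes LHCB1.4 and LHCB2.3, FRO6 (a plasma membrane ferric reductase), COL2 (a CONSTANS-like B-box factor), the mitochondrial transcription termination factor-like AT2G34620, the lipid transfer domain protein AT1G55960, and AT5G19190, AT1G13650 and AT5G16030. Log2 differences of these 9 ran from -5.27 for LHCB1.4 to -4.47 for COL2.

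Light-harvesting transcripts were lower at 120 min. All 19 antenna genes tested, which encode the chlorophyll a/b-binding proteins of photosystems I and II, fell past the threshold, with a median log2 difference of -2.18 against 0.10 over all genes. Without replicate 3 the median was -2.82. The antenna genes together made up 2.51%, 1.63% and 7.08% of the summed RPKM in the 120 min leaves, against 11.2%, 10.4% and 10.5% in the 0 min leaves. Replicate 3 was the highest of the 3 for all 19 genes, and for 18 of them, all but LHCB1.3, the 3 libraries at 120 min lay below the 3 at 0 min. Over all genes tested 19.1% lay wholly below.

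LHCB4.2, a minor antenna protein of photosystem II, read 93.0, 45.9 and 417 RPKM at 120 min, against 1986, 1647 and 1788 RPKM at 0 min, 9.76-fold lower (log2 difference -3.88, SE 0.58, limma adjusted p = 8.09e-06). The major trimer gene LHCB2.3 read 36.9, 16.4 and 466 RPKM at 120 min, against 1773, 2136 and 1682 RPKM at 0 min, a log2 difference of -4.78. LHCA4 of photosystem I read 1499, 697 and 3906 RPKM at 120 min, against 7040, 7829 and 8262 RPKM at 0 min. None of these genes overlapped between the groups, and LHCA5, the member with the smallest difference, still passed at -0.67 (limma adjusted p = 0.00504). The LHCB1 and LHCB2 genes are near copies of one another, so 50-base single reads may be split between them, and LHCB1.5 is listed at 0 in all 36 libraries.

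Of 32 nuclear genes for photosystem and electron transport subunits, 30 fell and none rose, with a median log2 difference of -1.27 (-1.69 without replicate 3). PSAD2, a stromal subunit of photosystem I, read 113, 65.9 and 569 RPKM at 120 min, against 1920, 1518 and 1537 RPKM at 0 min (log2 difference -3.34, SE 0.54, limma adjusted p = 2.13e-05). PETE2, the plastocyanin gene, was 2.37-fold lower at -1.34. The 2 members that did not pass were FNR2 at 0.58 and PDE334 at -0.45. The list made up 5.28%, 4.19% and 9.92% of the summed RPKM at 120 min, against 13.4%, 12.5% and 13.5% at 0 min.

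The Calvin-Benson cycle followed, with 21 of 24 genes lower and none higher, and a median of -1.06 (-1.41 without replicate 3). PRK, the phosphoribulokinase that regenerates the CO2 acceptor, read 278, 242 and 462 RPKM at 120 min, against 1185, 1285 and 1224 RPKM at 0 min (log2 difference -1.97, SE 0.28, limma adjusted p = 3.99e-06). CP12-2, the small protein that holds PRK and glyceraldehyde-3-phosphate dehydrogenase in a complex in the dark, was 4.71-fold lower at -2.26. RCA, the Rubisco activase gene, was 2.54-fold lower, while the Rubisco small subunit gene RBCS1A stood at -1.12 with overlapping groups and missed the threshold in 8 settings. The 3 members that did not pass were RBCL, FBA3 and EMB3119, and RBCL is a chloroplast gene.

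Genes around these pathways also fell, where over all genes 17.3% were lower and 23.2% higher. Photorespiration had 9 of 15 lower and none higher, among them GOX1 and GOX2 (glycolate oxidases), GGT1 and AGT1 (aminotransferases) and HPR1 (hydroxypyruvate reductase), at -1.45, -2.32, -1.48, -1.56 and -1.73. Chlorophyll synthesis had 9 of 22 lower, and 17 of 22 without replicate 3, led by CHLM at -2.28, CAO at -2.87 and CHLH at -2.49. Of the 6 plastid sigma factors, which direct the plastid RNA polymerase to promoters, 5 were lower, with SIG1 at 45.0, 34.5 and 50.2 RPKM at 120 min, against 174, 148 and 150 RPKM at 0 min.

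The chloroplast's own genes did not share this pattern. Of 72 chloroplast-encoded genes tested, 3 were lower (ATCG00190, ATCG00470 and ATCG00480) and none higher, with a median of 0.02, and each of the 3 missed the threshold in at least 7 of the alternative settings. Libraries were made from polyadenylated RNA, which chloroplast transcripts mostly lack, so those levels cover only a fraction of that RNA.

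Of the carotenoid and methylerythritol phosphate (MEP) pathway genes 8 of 17 were lower, against 17.3% over all genes. They included PSY (phytoene synthase) at -1.57 and LCYE (lycopene ε-cyclase) at -2.11. In the photoprotection and repair list 9 of 18 were lower and 1 was higher. SEP2, a stress-enhanced relative of the antenna proteins, read 39.1, 29.0 and 25.1 RPKM at 120 min, against 137, 172 and 196 RPKM at 0 min (log2 difference -2.41, limma adjusted p = 8.50e-07). ZEP, the zeaxanthin epoxidase, was 2.31-fold lower. The member that rose was PTOX, the plastid terminal oxidase, at 0.56 with overlapping groups, and it missed the threshold in 9 settings.

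**Figure D2:**
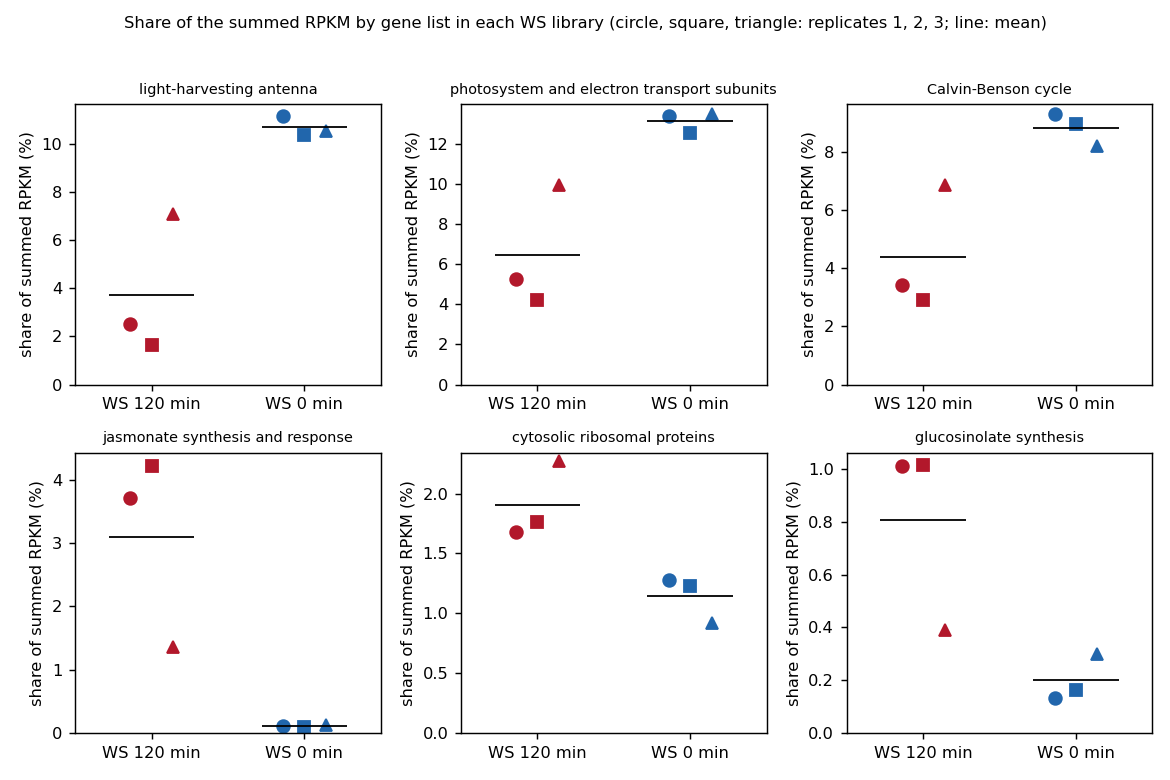
Share of the summed RPKM (%, axes from 0) held by 6 gene lists in each library, WS 120 min left of WS 0 min, with a marker for each replicate and a line at the mean. Replicate 3 at 120 min (triangle) lies between the other 120 min leaves and the 0 min leaves for the antenna list (7.08%, against 1.63% and 2.51% in the other leaves and 10.4% to 11.2% at 0 min) and for the jasmonate list (1.36%).

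The jasmonate list had the highest median of the 56 lists with tested members. Of 27 genes tested for jasmonate synthesis and response 22 were higher and none lower, with a median log2 difference of 3.70, and 4.70 without replicate 3. The list held 3.71%, 4.21% and 1.36% of the summed RPKM at 120 min, against 0.112%, 0.0890% and 0.132% at 0 min. Replicate 3 was the lowest of the 3 in 25 of the 27 genes. The members that did not pass were AOC4, JAZ3, JAZ7, JAZ12 and CYP94B3, at limma adjusted p between 0.0696 and 0.4215.

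The first steps of synthesis rose together. LOX2, the chloroplast lipoxygenase that oxidizes linolenic acid, read 5031, 5405 and 2335 RPKM at 120 min, against 249, 183 and 229 RPKM at 0 min (log2 difference 4.18, SE 0.58, limma adjusted p = 2.93e-06). AOS, the allene oxide synthase of the second step, read 4165, 4131 and 1280 RPKM at 120 min, against 177, 118 and 189 RPKM at 0 min. AOC2, the cyclase after it, read 3540, 4126 and 1096 RPKM at 120 min, against 31.0, 6.42 and 36.2 RPKM at 0 min. In all 3 genes the lowest 120 min library was above the highest 0 min library. The AOC genes, like VSP1 and VSP2, are close copies, and their reads may be split between them. MYC2, the main transcription factor of the response, is listed at 0 in all 36 libraries, and its level is not given here.

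Glucosinolates are sulfur-rich defence compounds. Of 25 genes of their synthesis 13 were higher and 1 lower, against 23.2% and 17.3% over all genes, with a median of 1.03. CYP79B2, which converts tryptophan to indole-3-acetaldoxime, read 247, 209 and 106 RPKM at 120 min, against 9.59, 6.97 and 13.4 RPKM at 0 min (log2 difference 4.05, SE 0.57, limma adjusted p = 3.97e-06). CYP83B1, SOT16 and GGP1, which act later in the pathway, were higher at 2.59, 2.45 and 3.37. The gene that fell was MYB28, a regulator of the methionine-derived kind, at 15.5, 15.9 and 25.6 RPKM at 120 min, against 60.8, 49.3 and 44.0 RPKM at 0 min (log2 difference -1.41).

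Sulfur supply moved with them, with 7 of 14 genes of sulfate assimilation and sulfur response higher and none lower (median 1.35). SIR, the sulfite reductase, read 265, 443 and 202 RPKM at 120 min, against 84.7, 93.2 and 116 RPKM at 0 min (log2 difference 1.56, SE 0.22, limma adjusted p = 3.51e-06). APR3, an adenosine phosphosulfate reductase, was 6.18-fold higher, and the kinase genes APK1 and APK2, which supply sulfate donors for glucosinolates, stood at 2.08 and 1.55. In the salicylate list 2 of 9 genes were lower and none higher (median 0.28), against 17.3% lower and 23.2% higher over all genes. The lower ones were ICS1, the isochorismate synthase of salicylate synthesis, at -1.98, and the defence regulator PAD4 at -2.22.

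**Figure D3:**
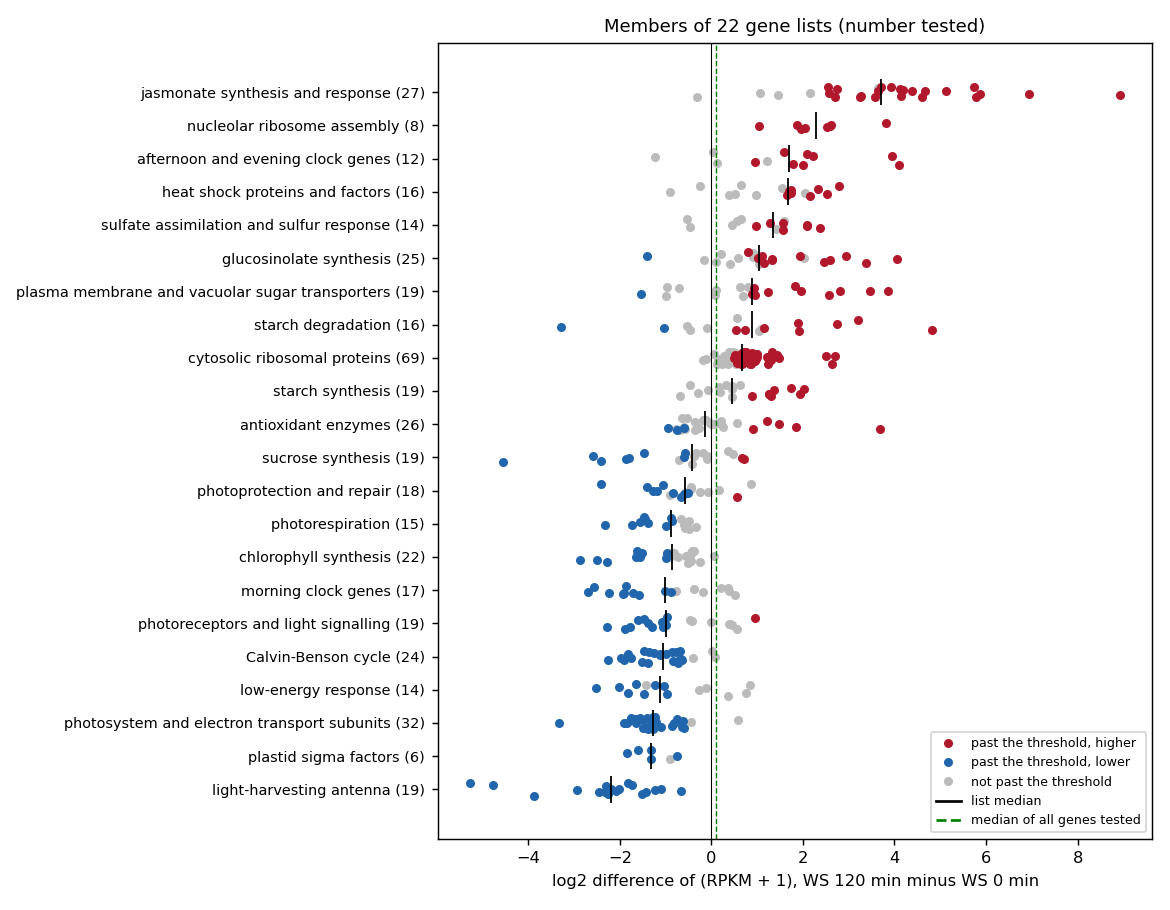
Log2 differences (RPKM + 1), WS 120 min minus WS 0 min, for each tested member of 22 gene lists, with the number tested in parentheses, a black bar at each list's median and a dashed line at the median of all genes. The jasmonate list centres at 3.70 and the nucleolar list at 2.29, while the antenna list centres at -2.18.

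Ribosome assembly genes were higher in all 3 leaves. All 8 genes of the nucleolar list, which encode proteins that modify and assemble ribosomal RNA (rRNA), were higher at 120 min, with a median log2 difference of 2.29, and 2.24 without replicate 3. Replicate 3 was the lowest of the 3 leaves for 3 of the 8 genes and the highest for another 3. In none of the 8 did the groups overlap, where 26.0% of all genes tested lay wholly higher at 120 min.

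NUC1, the nucleolin that organizes rRNA genes, read 437, 524 and 463 RPKM at 120 min, against 62.2, 93.9 and 78.3 RPKM at 0 min, 6.07-fold higher (log2 difference 2.60, SE 0.19, limma adjusted p = 1.56e-10). FIB2, a fibrillarin that methylates rRNA, read 90.7, 89.8 and 98.4 RPKM at 120 min, against 5.04, 7.95 and 4.60 RPKM at 0 min, 15.8-fold higher (log2 difference 3.81, SE 0.31, limma adjusted p = 9.11e-10). CBF5, the pseudouridine synthase of rRNA, read 74.8, 72.2 and 70.6 RPKM at 120 min, against 12.1, 15.1 and 8.97 RPKM at 0 min (log2 difference 2.52, limma adjusted p = 7.85e-09). The 120 min leaves differed among themselves by far less than they differed from the 0 min leaves.

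NOP58 and NOP58L, core proteins of the particles that guide rRNA methylation, stood at 2.61 and 1.95. The other 3 members, FIB1, NOP56 and PES, lay outside the rule for named genes and are given because they complete the list, at 1.05, 2.05 and 1.86. FIB1, a second fibrillarin gene, read 171, 188 and 164 RPKM at 120 min, against 76.1, 107 and 71.0 RPKM at 0 min, the smallest change of the 8 (limma adjusted p = 2.27e-05).

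Cytosolic ribosomal protein genes moved less and in the same direction. Of 69 tested, 42 were higher and none lower, against 23.2% and 17.3% over all genes, with a median of 0.66. Without replicate 3, 26 were higher and 1 lower, with a median of 0.51, and replicate 3 was the highest leaf at 120 min for 58 of the 69. The list held 1.68%, 1.76% and 2.27% of the summed RPKM at 120 min, against 1.28%, 1.22% and 0.921% at 0 min. Among the members with the smallest adjusted p, RPSAb, a small-subunit protein, read 19.4, 28.1 and 15.8 RPKM at 120 min, against 3.86, 3.22 and 1.07 RPKM at 0 min (log2 difference 2.62, limma adjusted p = 2.09e-06). Plastid ribosomal protein genes did not follow, with 5 of 12 lower and 1 higher, against 17.3% and 23.2% over all genes. The higher member was RPL3P at 1.49.

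The promoters of these genes are known in Arabidopsis to carry a short telomere-like repeat, the telo-box, and the site II element, and both were searched as letters. The telo-box was searched as AAACCCTA and the site II element as TGGGCC, on both strands, in the 250 bases before each annotated gene start (RefSeq, assembly TAIR10.1). Those 3 nucleolar promoters that held both are shown, 5′ to 3′ along the gene's strand, with matches on either strand in capitals. FIB1 lies at chr5:21293897-21294146 (plus strand), NOP56 at chr1:20986953-20987202 (minus strand) and NOP58 at chr5:9540611-9540860 (plus strand).
FIB1: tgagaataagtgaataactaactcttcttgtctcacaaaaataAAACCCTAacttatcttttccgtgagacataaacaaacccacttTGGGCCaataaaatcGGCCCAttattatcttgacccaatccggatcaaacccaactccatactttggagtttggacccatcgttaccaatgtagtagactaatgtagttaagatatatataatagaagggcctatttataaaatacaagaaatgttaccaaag
NOP56: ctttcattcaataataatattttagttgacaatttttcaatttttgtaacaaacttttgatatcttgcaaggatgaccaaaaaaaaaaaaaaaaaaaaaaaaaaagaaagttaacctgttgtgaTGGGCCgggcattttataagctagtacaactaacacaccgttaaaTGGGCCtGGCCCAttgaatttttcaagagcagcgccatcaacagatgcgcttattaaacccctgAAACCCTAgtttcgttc
NOP58: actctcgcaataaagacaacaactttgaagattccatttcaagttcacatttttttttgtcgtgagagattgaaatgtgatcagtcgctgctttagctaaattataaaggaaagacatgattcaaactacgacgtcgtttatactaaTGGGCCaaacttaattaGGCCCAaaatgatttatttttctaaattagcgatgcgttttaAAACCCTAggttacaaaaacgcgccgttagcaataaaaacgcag

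The telo-box was present in 3 of 8 nucleolar promoters (37.5%) and 16 of 69 ribosomal protein promoters (23.2%), against 3.66% of the 13738 promoters of tested genes that had one. The site II element was present in 5 of 8 (62.5%) and 39 of 69 (56.5%), against 17.7% of all. It was not particular to these lists. It was also present in 4 of 6 promoters of the plastid sigma factors (66.7%), which were mostly lower, and in 10 of 27 proteasome promoters (37%). FIB2 and CBF5, among the largest changes of the list, held none of the motifs searched in this window, and NUC1 held neither the telo-box nor the site II element. Over all genes higher at 120 min the telo-box share was 5.67%, and over the genes lower at 120 min it was 2.51%. A match describes letters only, and binding was not measured.

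Clock genes were counted as 2 lists, by the time of day at which they usually peak. The clock of Arabidopsis runs as a loop in which the morning factors CCA1 and LHY repress evening genes, and PRR and evening complex proteins repress the morning factors in return. Of 12 afternoon and evening clock genes tested 8 were higher and none lower (median 1.69). Of 17 morning clock genes 10 were lower and none higher (median -1.01). Over all genes 23.2% were higher and 17.3% lower. Without replicate 3 at 120 min, 8 evening genes were higher and 1 lower (median 1.61). In the same setting 7 morning genes were lower and none higher (median -0.95).

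PRR5, a repressor of the morning factors, read 33.4, 15.3 and 9.97 RPKM at 120 min, against 0, 0.13 and 0.07 RPKM at 0 min (log2 difference 4.11, SE 0.61, limma adjusted p = 8.14e-06). CCR2 (AT2G21660), a clock-driven RNA-binding protein also called GRP7, read 246, 108 and 289 RPKM at 120 min, against 8.86, 13.9 and 13.4 RPKM at 0 min (log2 difference 3.95, SE 0.80, limma adjusted p = 0.000338). GI, the flowering and clock regulator GIGANTEA, read 21.9, 31.4 and 17.3 RPKM at 120 min, against 3.17, 4.19 and 7.19 RPKM at 0 min (log2 difference 2.09). The groups were separate for all 3, although the leaves at 120 min spread widely for PRR5.

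On the morning side LNK3, a coactivator of the RVE factors, read 25.1, 24.9 and 18.9 RPKM at 120 min, against 120, 106 and 105 RPKM at 0 min (log2 difference -2.23, SE 0.38, limma adjusted p = 4.11e-05). RVE1, LNK2, LNK4 and CDF2 stood at -2.70, -1.92, -1.90 and -1.71. CCA1 and LHY, outside the naming rule and given as the centre of the loop, stood at -1.87 (limma adjusted p = 0.00699) and -2.55 (limma adjusted p = 0.0159). LHY missed the threshold in 6 settings.

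The evening element, AAAATATCT on either strand, was present in 5 of 12 evening clock promoters (41.7%) and 1 of 17 morning clock promoters, against 2.62% of all. The G-box, CACGTG, was present in 8 of 17 morning clock promoters (47.1%), against 7.94% of all. PRR5 (chr5:8358547-8358796, minus strand) and CCR2 (chr2:9266558-9266807, minus strand) are shown as the genes with the largest rises of the list, with the evening elements in capitals, which read AGATATTTT when on the opposite strand.
PRR5: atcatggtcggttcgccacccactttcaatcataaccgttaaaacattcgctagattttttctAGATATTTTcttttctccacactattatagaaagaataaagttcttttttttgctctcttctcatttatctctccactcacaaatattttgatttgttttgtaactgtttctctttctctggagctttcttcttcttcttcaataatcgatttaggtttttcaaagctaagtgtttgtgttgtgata
CCR2: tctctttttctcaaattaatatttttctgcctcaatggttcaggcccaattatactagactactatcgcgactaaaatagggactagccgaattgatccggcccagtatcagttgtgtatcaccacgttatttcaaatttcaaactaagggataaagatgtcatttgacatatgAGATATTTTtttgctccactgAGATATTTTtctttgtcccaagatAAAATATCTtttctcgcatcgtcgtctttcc

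PRR5 held 1 match, far from the gene start within the window, and CCR2 held 3, close to the gene start. The time of day moved with the light in these leaves, so the clock values describe the time point.

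Light signalling genes were mostly lower, with 11 of 19 lower and 1 higher (median -0.99), against 17.3% and 23.2% over all genes. PIF1, which represses chlorophyll synthesis in darkness, read 0.91, 1.02 and 4.07 RPKM at 120 min, against 11.3, 12.6 and 12.6 RPKM at 0 min (log2 difference -2.29, limma adjusted p = 1.93e-05). CRY1 and PHOT2, blue light receptors, stood at -1.46 and -1.06. ATHB2, a shade-induced homeobox factor, stood at -1.60. SPA1, a partner of the COP1 ubiquitin ligase, was the gene that rose, at 0.94 with overlapping groups.

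Sugar transporters of the plasma membrane, the vacuole and the plastid envelope were counted separately. Of 19 plasma membrane and vacuolar sugar transporters 10 were higher and 1 lower (median 0.88), against 23.2% and 17.3% over all genes. SWEET12, a sucrose exporter, read 19.5, 34.4 and 21.8 RPKM at 120 min, against 0.10, 1.12 and 1.33 RPKM at 0 min (log2 difference 3.86, SE 0.55, limma adjusted p = 4.74e-06). STP13, a hexose uptake carrier, was 24.2-fold higher, with 66.7, 42.3 and 4.58 RPKM at 120 min, against 0.62, 0.68 and 3.39 RPKM at 0 min. The separation was wide for SWEET12, while replicate 3 came close to the 0 min leaves for STP13. SFP2, a sugar-porter family member, was the gene that fell, at -1.54 with overlapping groups.

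At the envelope 5 of 16 transporters were higher and 2 lower (median 0.04), a share close to the 40.5% called over all genes. NTT1 and NTT2, which exchange ATP for ADP across the envelope, stood at 1.72 and 0.94 beside GPT2. TPT and PGLCT, the plastidic glucose exporter, were the lower ones, with PGLCT at 6.43, 8.61 and 20.4 RPKM at 120 min, against 34.0, 36.9 and 41.1 RPKM at 0 min (log2 difference -1.73, limma adjusted p = 0.000107). The other higher members were PPT1, a phosphoenolpyruvate translocator, at 0.73 and DIT2-2, a dicarboxylate transporter, at 1.33.

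Both starch lists had more genes higher than lower, where over all genes 23.2% were higher and 17.3% lower. Of 16 starch degradation genes 8 were higher and 2 lower (median 0.88), and of 19 starch synthesis genes 8 were higher and none lower (median 0.46). ISA3, a debranching enzyme, read 38.3, 22.6 and 59.0 RPKM at 120 min, against 5.59, 2.92 and 6.01 RPKM at 0 min (log2 difference 2.75, SE 0.47, limma adjusted p = 4.31e-05). BAM5, a β-amylase outside the plastid, was 25.0-fold higher. PHS2, a cytosolic phosphorylase, and BAM3, the main plastid β-amylase, were 9.66-fold and 4.15-fold higher.

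GWD1 and PWD, which phosphorylate starch granules, stood at 1.74 and 2.03, and the synthesis genes APL3 and APL4, large subunits of ADP-glucose pyrophosphorylase, at 1.37 and 1.26. The 2 degradation genes that fell were BAM2 and BAM9. BAM9, a catalytically inactive relative of the β-amylases, read 0.71, 0.66 and 0.67 RPKM at 120 min, against 10.8, 19.8 and 17.2 RPKM at 0 min (log2 difference -3.29, limma adjusted p = 0.000112). So the 3 leaves at 120 min were nearly equal for BAM9, and replicate 3 did not stand apart.

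In sucrose synthesis 8 of 19 genes were lower and 2 higher (median -0.42), against 17.3% and 23.2% over all genes. PFPB2, a subunit of the pyrophosphate-dependent phosphofructokinase, and UGP2, a UDP-glucose pyrophosphorylase, stood at -1.87 and -1.46. The members that rose were CYTOTPI, the cytosolic triose phosphate isomerase, at 0.66 and UGP1, the other UDP-glucose pyrophosphorylase gene, at 0.70. UGP1 and UGP2 thus moved in opposite directions, with UGP1 at 106, 117 and 122 RPKM at 120 min, against 60.2, 82.6 and 69.4 RPKM at 0 min, and UGP2 at 11.9, 12.8 and 12.9 RPKM at 120 min, against 38.6, 38.6 and 32.0 RPKM at 0 min.

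Trehalose 6-phosphate is a signal of sucrose status. Its metabolism had 6 of 13 genes lower and 1 higher, against 17.3% and 23.2% over all genes. TPS8, a class II trehalose phosphate synthase-like protein, read 3.72, 4.05 and 3.84 RPKM at 120 min, against 24.6, 23.3 and 37.2 RPKM at 0 min (log2 difference -2.56, limma adjusted p = 0.000245). The gene that rose was TPPJ, a trehalose phosphate phosphatase, at 38.2, 63.4 and 18.1 RPKM at 120 min, against 5.47, 7.62 and 9.42 RPKM at 0 min. Genes known to be raised by low energy were lower for 8 of 14 tested and higher for none, with MCCA (a leucine breakdown enzyme) at -1.64, AKINB1 (a β subunit of the SnRK1 kinase) at -1.81 and BZIP63 (a SnRK1-linked transcription factor) at -2.51.

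Cytosolic glycolysis was mixed, with 4 of 12 higher and 2 lower. AT3G52990, a pyruvate kinase, read 143, 127 and 98.3 RPKM at 120 min, against 21.8, 30.2 and 34.6 RPKM at 0 min (log2 difference 2.06, SE 0.20, limma adjusted p = 1.96e-08). The lower ones were GAPC2, a cytosolic glyceraldehyde-3-phosphate dehydrogenase, at 1.99-fold lower, and GAPN. In nitrogen metabolism 4 of 19 were higher and 4 lower, near the shares over all genes (23.2% higher and 17.3% lower). GDH2, a glutamate dehydrogenase, was 26.9-fold higher, and the vacuolar nitrate exchanger CLCA was 9.01-fold lower.

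Stress lists are set here against 23.2% higher and 17.3% lower over all genes. Of 16 heat shock genes tested 8 were higher and none lower (median 1.67), and 11 were higher without replicate 3. HSP70-1, a cytosolic chaperone, read 1997, 3184 and 1140 RPKM at 120 min, against 661, 716 and 403 RPKM at 0 min (log2 difference 1.75, SE 0.35, limma adjusted p = 0.000298). HSP70-4 read 75.3, 292 and 7.06 RPKM at 120 min, against 8.29, 6.61 and 6.57 RPKM at 0 min, so replicate 3 was at the level of the 0 min leaves. A further 10 listed heat shock genes never read above 7 RPKM and were not tested.

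Antioxidant enzymes split, with 5 of 26 higher and 3 lower (median -0.15). DHAR1, a cytosolic dehydroascorbate reductase, read 2512, 2105 and 1290 RPKM at 120 min, against 215, 116 and 130 RPKM at 0 min, 12.8-fold higher (log2 difference 3.67, SE 0.58, limma adjusted p = 1.76e-05). APX1, the cytosolic ascorbate peroxidase, was 2.81-fold higher, and DHAR2 was 2.52-fold higher. The members that fell were CSD3, a superoxide dismutase, at -0.95, and the chloroplast enzymes DHAR3 and TAPX at -0.59 and -0.74, which were lost in 5 and 10 settings.

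Abscisic acid and cold-related genes had 10 of 24 higher and 3 lower (median 1.11). KIN2, a small hydrophilic stress protein, read 1776, 1374 and 1376 RPKM at 120 min, against 328, 130 and 93.6 RPKM at 0 min (log2 difference 3.23, SE 0.49, limma adjusted p = 1.15e-05), and COR15A, which protects chloroplast membranes in the cold, stood at 3.20. The lower ones were ABF3, a transcription factor of the pathway, P5CS1, the rate-limiting enzyme of proline synthesis, and CCD4, a carotenoid cleavage dioxygenase, at -2.59, -2.79 and -2.06.

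Of 32 WRKY, ZAT and NAC factors 8 were higher and none lower (median 1.20), and 15 were higher without replicate 3. ZAT10, a zinc finger repressor, read 8.44, 41.9 and 1.84 RPKM at 120 min, against 0.51, 0.27 and 0.44 RPKM at 0 min, and it was lost in 6 settings. Replicate 2 was far above the other 120 min leaves. In mitochondria 4 of 8 genes of alternative respiration were higher, with AOX1A, the alternative oxidase, at 88.0, 80.8 and 32.7 RPKM at 120 min, against 15.4, 21.7 and 26.9 RPKM at 0 min (log2 difference 1.52). Of 14 ER chaperones 4 were higher, among them CNX1 at 1.55.

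Growth-related genes were lower more often than higher, where over all genes 17.3% were lower and 23.2% higher. Of 14 expansins and xyloglucan endotransglucosylases 5 were lower and 1 higher. EXPA11 read 4.70, 4.24 and 5.03 RPKM at 120 min, against 70.3, 104 and 129 RPKM at 0 min (log2 difference -4.13, SE 0.57, limma adjusted p = 2.57e-06). The gene that rose was EXPA10, another expansin, at 103, 108 and 70.9 RPKM at 120 min, against 13.8, 21.6 and 5.42 RPKM at 0 min. Of 8 gibberellin and brassinosteroid genes 5 were lower and none higher, including CPD, a brassinosteroid synthesis enzyme, at 3.84-fold lower. In the auxin list 3 of 13 were lower, near the share over all genes, with IAA14 at -2.90. The 1 that rose, GH3.3, was lost in 12 settings.

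Several lists had smaller shares of called genes than the 40.5% over all genes. Flavonoid and anthocyanin synthesis had 1 of 15 genes lower (4CL1) and none higher, with a median of -0.03, although the regulator PAP1 read 113, 82.5 and 32.6 RPKM at 120 min, against 10.8, 3.58 and 2.37 RPKM at 0 min (log2 difference 3.59, limma adjusted p = 0.00224). Of 27 proteasome subunits 2 were higher, with a median of 0.16. In iron homeostasis 1 of 13 was higher (FER3, a ferritin, 4.05-fold) and 1 lower (FRO7, a chloroplast ferric reductase, at -2.74). Other lists were nearer to that share. Genes picked as aminoacyl-tRNA synthetases by their annotated product names had 12 of 44 higher and 8 lower, with a median of 0.02. Some members of that list, such as SAMBA, may not encode these enzymes. The lysyl enzyme gene ATKRS-1 read 69.9, 79.8 and 76.4 RPKM at 120 min, against 25.1, 38.6 and 29.2 RPKM at 0 min (log2 difference 1.28, SE 0.17, limma adjusted p = 1.5e-06). Fatty acid and galactolipid synthesis was mixed, with 4 of 20 higher and 5 lower, among them FAD5, a chloroplast desaturase, at -2.19 and MGD1, which makes monogalactolipids, at 2.06.

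Markers of the cell types in a leaf were checked. All 4 mesophyll markers, which are themselves photosynthesis genes, were lower (median -1.58), and their summed level ran from 8445 to 24380 RPKM at 120 min and from 28280 to 36290 RPKM at 0 min. In whole leaves, fewer cells of a type and less RNA per cell cannot be told apart. The summed level of 9 guard cell markers ran from 39.3 to 46.9 RPKM at 120 min and from 31.1 to 49.3 RPKM at 0 min, with 1 of 5 tested members lower, and 1 of 3 epidermis markers and 1 of 4 phloem markers were also lower. The 4 root markers summed to 0.07 to 0.31 RPKM at 120 min and 0.13 to 1.71 RPKM at 0 min, and the root genes CASP1 and COBL9 were under 0.1 RPKM in all 6 libraries. The 6 xylem markers summed to 9.05 to 42.5 RPKM at 120 min and 11.7 to 38.8 RPKM at 0 min, and the 4 dividing cell markers to 0.77 to 7.40 RPKM at 120 min and 3.75 to 5.39 RPKM at 0 min. Replicate 3 was the highest of the 120 min leaves for both of these lists, and their part in its distance from the other leaves was not tested.

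Within the time course the 120 min leaves were also tested directly against the WS leaves at 60 min and 240 min. Against 60 min 2449 genes differed (17.7%), 1466 higher (10.6%) and 983 lower (7.11%) at 120 min, and the split was 2065 higher and 548 lower under TPM. Against 240 min 3069 genes differed (22.2%), 1648 higher (11.9%) and 1421 lower (10.3%), and the split was 1180 higher and 1982 lower under TPM. The 240 min count depended on single libraries, with 4711 genes without 120 min replicate 3, 1195 without replicate 2 and 1656 without replicate 1. Against both times at once 448 genes were higher at 120 min and 195 lower.

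The nucleolar genes were above both neighbouring times for most members. All 8 passed as higher against 60 min (median 2.40) and 6 against 240 min (median 0.68). FIB2 averaged 5.86 ± 1.82 RPKM at 0 min, 6.003 ± 1.28 RPKM at 60 min, 93.0 ± 4.75 RPKM at 120 min and 38.4 ± 9.85 RPKM at 240 min (SD, n = 3 each). NUC1 averaged 78.2 ± 15.9, 91.8 ± 5.81, 474 ± 44.5 and 292 ± 3.81 RPKM at the same 4 times. At 60 min neither gene had passed against 0 min (limma adjusted p = 0.94 for FIB2 and 0.348 for NUC1), and both averaged highest at 120 min among these times. Of the 69 ribosomal protein genes 55 passed as higher against 60 min and 4 against 240 min. Over all genes 10.6% were higher against 60 min and 11.9% against 240 min. The ribosomal protein genes were thus above that share against 60 min and below it against 240 min.

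By the rule for genes that stood out at 120 min, 6 of the 8 that were most different from both neighbours were higher and 2 lower. PUM24, an RNA-binding protein of rRNA processing, averaged 7.17 ± 1.83, 6.99 ± 1.11, 43.4 ± 9.69 and 15.9 ± 1.23 RPKM from 0 to 240 min, with log2 differences of 2.46 against 60 min (limma adjusted p = 5.39e-10) and 1.37 against 240 min (limma adjusted p = 3.025e-05). SWA1, a nucleolar protein of pre-rRNA processing, stood at 2.20 and 1.62, and TRM82, annotated as a WD40-repeat protein, at 2.20 and 1.83. AT5G06110, AT2G28600 and AT5G64420 rounded out the higher ones. The lower ones were GOX2, at -1.24 and -1.53, and STY17, annotated as a tyrosine kinase family protein, at -1.34 and -1.62. The 448 genes above both neighbours held the telo-box in 10.9% of their promoters and both the telo-box and the site II element in 4.24%, against 3.66% and 1.11% of all genes tested, and none of the 195 genes below both neighbours held the pair.

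Jasmonate and evening clock genes had other courses. Of the 27 jasmonate genes none passed as higher against 60 min and 8 as lower, while 12 passed as higher against 240 min. BSMT1 averaged 0.613 ± 0.654 RPKM at 0 min, 646 ± 116 RPKM at 60 min, 623 ± 421 RPKM at 120 min and 2.05 ± 0.817 RPKM at 240 min (SD, n = 3 each). Of the 12 evening clock genes 5 passed as higher against 60 min and 7 as lower against 240 min, and CCR2 averaged 12.1 ± 2.78, 22.4 ± 16.9, 214 ± 94.9 and 2917 ± 503 RPKM from 0 to 240 min. Of the antenna genes 6 of 19 were lower at 120 min than at 60 min and 1 was lower than at 240 min. Over all genes 10.6% were higher and 7.11% lower against 60 min, and 11.9% were higher and 10.3% lower against 240 min. The antenna count against 240 min was thus not above the share over all genes.

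The response at 120 min was compared with that of Col-0 by an interaction term. It differed for 18 of 13817 genes (0.130%), with a more positive response in WS for 8 (0.0579%) and a more negative one for 10 (0.0724%), and with 906 genes at an unadjusted p under 0.05. The count was 30 with the replicate number as a block, 87 without WS 120 min replicate 3, 8 without WS 0 min replicate 1, 3 by voom on the recovered reads, 8 with a pseudocount of 0.1 RPKM and 10 without WS 120 min replicate 2. It was 5, 6 and 51 without replicates 1, 2 and 3 of WS at all times. None of the gene lists had a called member in this comparison.

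AT3G44790, a TRAF-like protein gene, headed the 18 by adjusted p. It read 1.38, 1.21 and 4.08 RPKM in WS 120 min leaves, against 88.7, 37.7 and 39.4 RPKM in WS 0 min leaves, while in Col-0 it read 0.02, 0 and 0.11 RPKM at 120 min and 0.03, 0.03 and 0.15 RPKM at 0 min. The log2 response was lower in WS by -4.08 (limma adjusted p = 2.11e-06), and the transcript was near 0 in every Col-0 leaf at both times. Its neighbours AT3G44800 and AT3G44805, also called, encode related proteins that reads of 50 bases may not separate.

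AT4G11310, a papain family cysteine protease gene, read 8.31, 7.26 and 6.55 RPKM in WS 120 min leaves and is listed at 0 in all 3 WS 0 min leaves. In Col-0 it read 0, 0.29 and 0 RPKM at 120 min and is listed at 0 in all 3 leaves at 0 min. AT5G39790, which encodes PROTEIN TARGETING TO STARCH, read 34.1, 24.3 and 39.5 RPKM in WS 120 min leaves, against 24.4, 15.3 and 23.0 RPKM in WS 0 min leaves. In Col-0 the same gene read 35.3, 50.6 and 39.1 RPKM at 120 min, against 2.60, 7.74 and 1.77 RPKM at 0 min. The ecotypes overlapped at 120 min and not at 0 min, and the WS difference on its own did not pass (limma adjusted p = 0.0837).

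AT1G55890, a tetratricopeptide repeat-like protein gene, read 17.9, 17.3 and 17.4 RPKM in WS 120 min leaves, against 3.48, 4.85 and 4.14 RPKM in WS 0 min leaves, and 18.6, 17.1 and 23.8 RPKM at 120 min, against 13.0, 11.5 and 11.4 RPKM at 0 min, in Col-0. The remaining 3 of the 8 were AT3G05945 and AT1G06963, for which no product is annotated, and AT2G21860, annotated as violaxanthin de-epoxidase-like. AT3G05945 was near 0 in every WS leaf and AT1G06963 in every Col-0 leaf. Reads were mapped to the Col-0 genome sequence in both ecotypes.

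**Figure D4:**
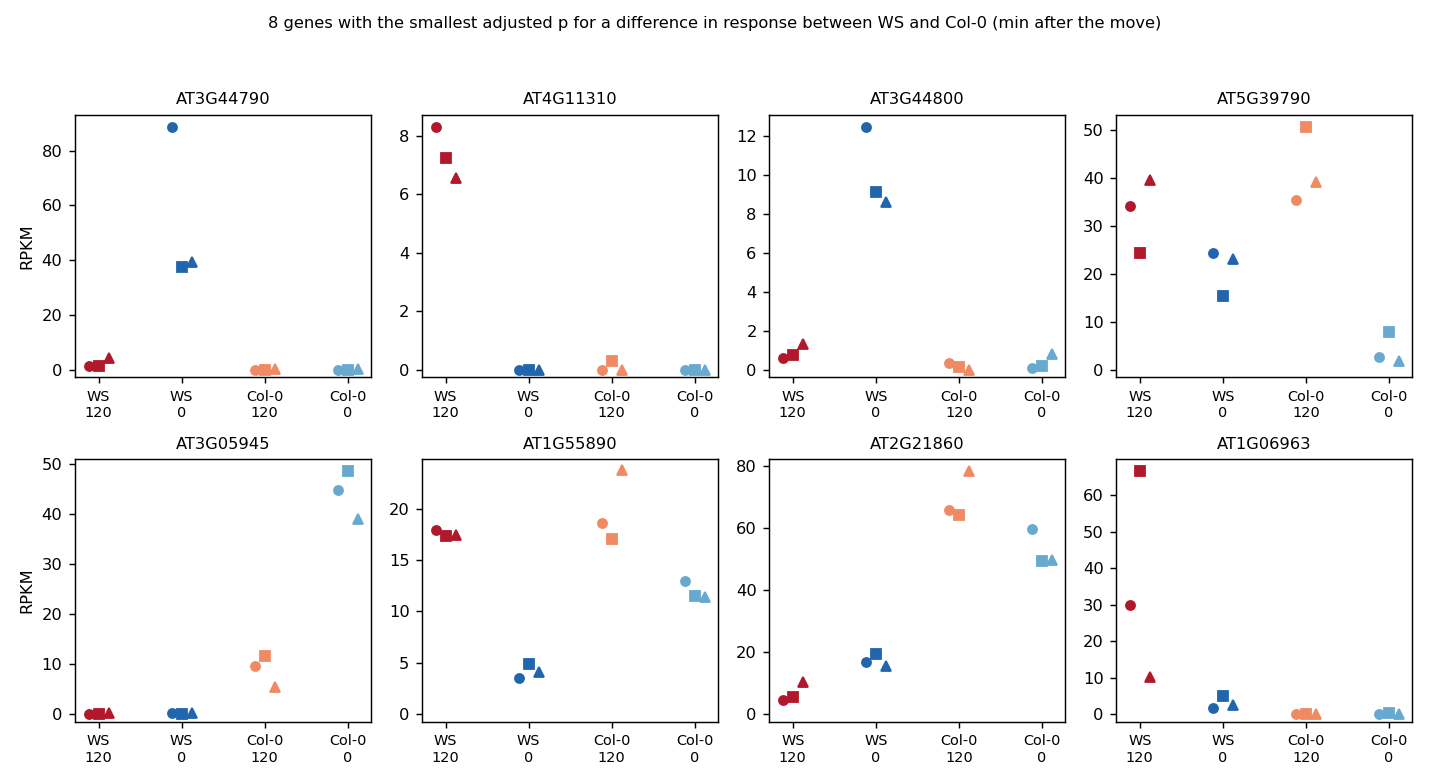
RPKM of the 8 genes that headed the test of the ecotypes against each other, in WS 120 min, WS 0 min, Col-0 120 min and Col-0 0 min leaves, with a marker for each replicate. AT3G44790 reads 37.7 to 88.7 RPKM at 0 min in WS and at most 0.15 RPKM in any Col-0 leaf shown, and AT4G11310 reads above 6 RPKM only in the WS 120 min leaves of these 12.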

How the data were processed

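RNA was taken from single leaves of 3 plants per ecotype at each time, and libraries were poly(A)-selected, stranded and sequenced as 50-base single reads. The deposited values are RPKM, which the authors made by trimming with Trimmomatic 0.32, checking with FastQC, aligning with STAR 2.3.0e to TAIR10 and counting with featureCounts. Neither the strand setting nor the annotation release is given in the sources used here. Low RPKM values were whole multiples of 1 read for at least 99.78% of those tested (within 0.1 read), which gave the reads per library, about 7350000 to 36780000 for the 6 compared.

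Values were taken as log2(RPKM + 1), and the groups of all 36 libraries were fitted in limma 3.58.1 (R 4.3.3) with a trend, so that 12 groups shared 1 estimate of the spread (24 residual degrees of freedom). Contrasts were WS 120 min minus 0, 60 and 240 min, and the difference of the 120 min response between WS and Col-0, with Benjamini-Hochberg adjustment over 13817 genes and a threshold of 0.05. Replicates of a group are leaves of different plants. The p-values rest on the spread between leaves within all 12 groups, Col-0 and the other times included. By the methods each plant gave a leaf at each time, and the main fit treated those leaves as independent. Alternatives changed the pseudocount, filter, scaling, samples, block and left-out libraries, and voom on recovered reads was added after the data were seen.

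Genes named were 7 chosen from those the study names (GPT2, RRTF1, TPT, SPS4, SPP2, G6PDH1 and GAPN), the 12 largest differences in each direction whose libraries did not overlap and whose higher group averaged above 7 RPKM, up to 5 called members per list with the smallest adjusted p plus called members against the list's direction, the 8 smallest adjusted p of the ecotype difference, and the 8 genes most different from both 60 and 240 min. Others, among them members that did not pass, LHCA5, LHCB1.3, PPT1, DIT2-2 and AT3G44805, were chosen after their values were seen. The members and lists were chosen with earlier results of these data known. Counts of lists are to be read against the shares called over all genes, given at the start and again beside many lists. All 37336 genes except 285 were matched to RefSeq by locus.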

Additional observations from a re-analysis of the deposited data

Results flagged for a closer look

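The difference in the response to the move between the ecotypes passed the threshold for 18 genes by the interaction term in limma, and these are the results in which groups under the same contrast differed by a test. The log2 response in WS minus that in Col-0 was -4.08 for AT3G44790, 2.94 for AT4G11310, -2.35 for AT3G44800, -2.63 for AT5G39790, 2.13 for AT3G05945, 1.18 for AT1G55890, -1.68 for AT2G21860 and 2.96 for AT1G06963. AT3G44800 read 0.57, 0.76 and 1.33 RPKM in WS 120 min leaves, against 12.5, 9.15 and 8.60 RPKM in WS 0 min leaves, and at most 0.81 RPKM in the Col-0 leaves at both times. AT1G06963 read 29.9, 66.5 and 10.1 RPKM in WS 120 min leaves, against 1.76, 4.84 and 2.53 RPKM in WS 0 min leaves, and at most 0.21 RPKM in the Col-0 leaves.

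AT3G05945 read at most 0.31 RPKM in the WS leaves, and 9.58, 11.6 and 5.44 RPKM at 120 min, against 44.6, 48.4 and 38.9 RPKM at 0 min, in Col-0. AT2G21860 read 4.60, 5.40 and 10.2 RPKM in WS 120 min leaves, against 16.7, 19.3 and 15.4 RPKM in WS 0 min leaves, and 65.6, 64.1 and 78.4 RPKM at 120 min, against 59.6, 49.2 and 49.6 RPKM at 0 min, in Col-0. In 5 of the 8 genes the level was at most 0.81 RPKM in 1 ecotype at both times.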

How the results depend on the processing

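A plant that is left out here is a replicate number of WS at all times, taken to be the same plant. For 120 against 0 min the main count of 5600 became 3380 with the 6 WS samples alone, 3349 without plant 1 of WS and 3153 without plant 2, each with fewer samples, and leaving out libraries or plants gave 3153 to 6602. For 120 against 60 min the main 2449 became 1470, 1167 and 1604 without plants 1, 2 and 3 of WS (range 1167 to 2636). For 120 against 240 min the main 3069 became 1656, 1195 and 4711 without replicates 1, 2 and 3 at 120 min, 4803 without 120 min replicate 3 and 0 min replicate 1 together, and 1537 and 243 without plants 1 and 2 (range 243 to 4803). For the ecotype difference the main 18 became 8 with a pseudocount of 0.1 RPKM, 38 with a filter of 1 RPKM in 3 samples, 50 with no filter and 3 by voom. It became 10 without 120 min replicate 2, 87 without replicate 3, 8 without 0 min replicate 1, 39 without both of the last, and 5, 6 and 51 without plants 1, 2 and 3 (range 5 to 87). The cause was not tested.

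Of the 273 named genes 270 passed, and 175 of those passed in every alternative run of the 21. Of 5660 values for a passing gene under an alternative, 440 lost the call and none reversed. AT3G05945, not called, stood at 0.03491 without replicate 1 of WS at all times. Of 1176 list counts under alternatives, 921 stayed within 1.5 times and 255 did not.

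Replicate numbers were taken to mark the same plant at each time, which the methods do not state. The deviations of same-numbered leaves at 120 and 0 min correlated at 0.11, -0.09 and -0.13. Replicate 3 at 120 min correlated at 0.20 with replicate 2 at 0 min, so the numbers share little. With the replicate number of each ecotype as a block the counts were 6152 against 0 min, 2936 against 60 min, 3730 against 240 min and 30 for the ecotype difference. Depth limits genes near 0, most of all in WS 0 min replicate 1.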
